A study of Mus musculus with 8 samples.

Results

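A list of 32 genes of white and brown fat was followed array by array in the adrenal medulla of mice that lost SdhD, a membrane subunit of mitochondrial complex II. The members were matched to spots by gene symbol, and the list was drawn up with earlier results of these data known. Of the 32 genes, 29 had a spot with that symbol and 28 had a spot that could be tested, out of 19322 genes with a tested spot. These 28 genes had 60 of the 28073 tested spots. Cfd, Acsl1 and Adrb3 had no spot of that name and were not analysed here, and the only spot of Elovl3, an enzyme that lengthens fatty acids, had too few values for a test.

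Total RNA of the adrenal medulla, separated from the cortex by surgery, was labeled with Cy5 and hybridised on 2-colour arrays against a Cy3-labeled pool of 8 wild-type (+/+) mice. All mice were males of the 129/SvJ background, 10 weeks old, and all groups had received 4 daily injections of 100 µg/g tamoxifen that began 1 week earlier. SDHD-ESR mice have 1 null and 1 floxed copy of SdhD with a tamoxifen-inducible Cre-ER recombinase, +/- mice have both these copies but no Cre, and +/+ mice have a floxed and an intact copy and no Cre. Each group had 8 mice on 4 arrays, with 2 mice pooled per array. Slide 1 held replicates 1 and 2 of both groups and slide 2 held replicates 3 and 4. The sources used here do not give the promoter that drives the recombinase.

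All values are log2 ratios to the +/+ pool with the deposited sign turned, so that RNA above the level of the pool gives a positive value. A step of 1 on this scale is a doubling. The pool counts as 1 control sample and no dye swap was made, so that dye bias stays in each ratio to the pool but cancels in SDHD-ESR minus +/-. A ratio does not give the level of a gene, and in a bulk sample fewer fat cells and less RNA per cell cannot be told apart. The targeted gene followed the labels: Sdhd was -1.10, -2.25, -0.74 and -0.29 on the +/- arrays and -5.00, -6.19, -5.26 and -4.86 on the SDHD-ESR arrays. Array medians lay between -0.24 and 0.32. In 41.0% of the lines of its spot grid, the array SDHD-ESR 1 was shifted by 1 line against the other arrays, and in another 10.5% the shift could not be placed; values of this array are given as deposited and, where it matters, with the line moved back.

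White fat cells store triglyceride in 1 large droplet coated by perilipins and CIDE proteins and secrete hormones such as adiponectin, leptin and resistin. Brown fat cells hold many small droplets and many mitochondria, and release heat through the uncoupling protein UCP1. The nuclear receptor PPARγ together with C/EBPα drives the genes of both. In mice the adrenal gland is embedded in fat near the kidney, and this fat can hold white and brown cells.

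Most fat genes were low on the same 3 arrays, +/- 2, SDHD-ESR 3 and SDHD-ESR 4, though by very unequal amounts, and the 2 groups overlapped for every one of the 28 genes. On the +/- arrays 1, 3 and 4 the median fat gene stood at 0.78, 0.47 and 0.97, and on +/- 2 it stood at -1.08. On the SDHD-ESR arrays 1 and 2 it stood at 0.32 and 0.00, and on SDHD-ESR 3 and 4 at -1.52 and -1.35. Values below 0 were thus found for 25 of 28 genes on +/- 2, 25 on SDHD-ESR 3 and 22 on SDHD-ESR 4. The median of all genes tested stayed between -0.18 and 0.36 on these arrays. A value below -1 was found for 15 of 28 fat genes on +/- 2, 18 on SDHD-ESR 3 and 16 on SDHD-ESR 4, where 9.73%, 9.12% and 6.85% of all genes were that low. Moving the shifted lines of SDHD-ESR 1 back left its median at 0.30.

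**Figure D1:**
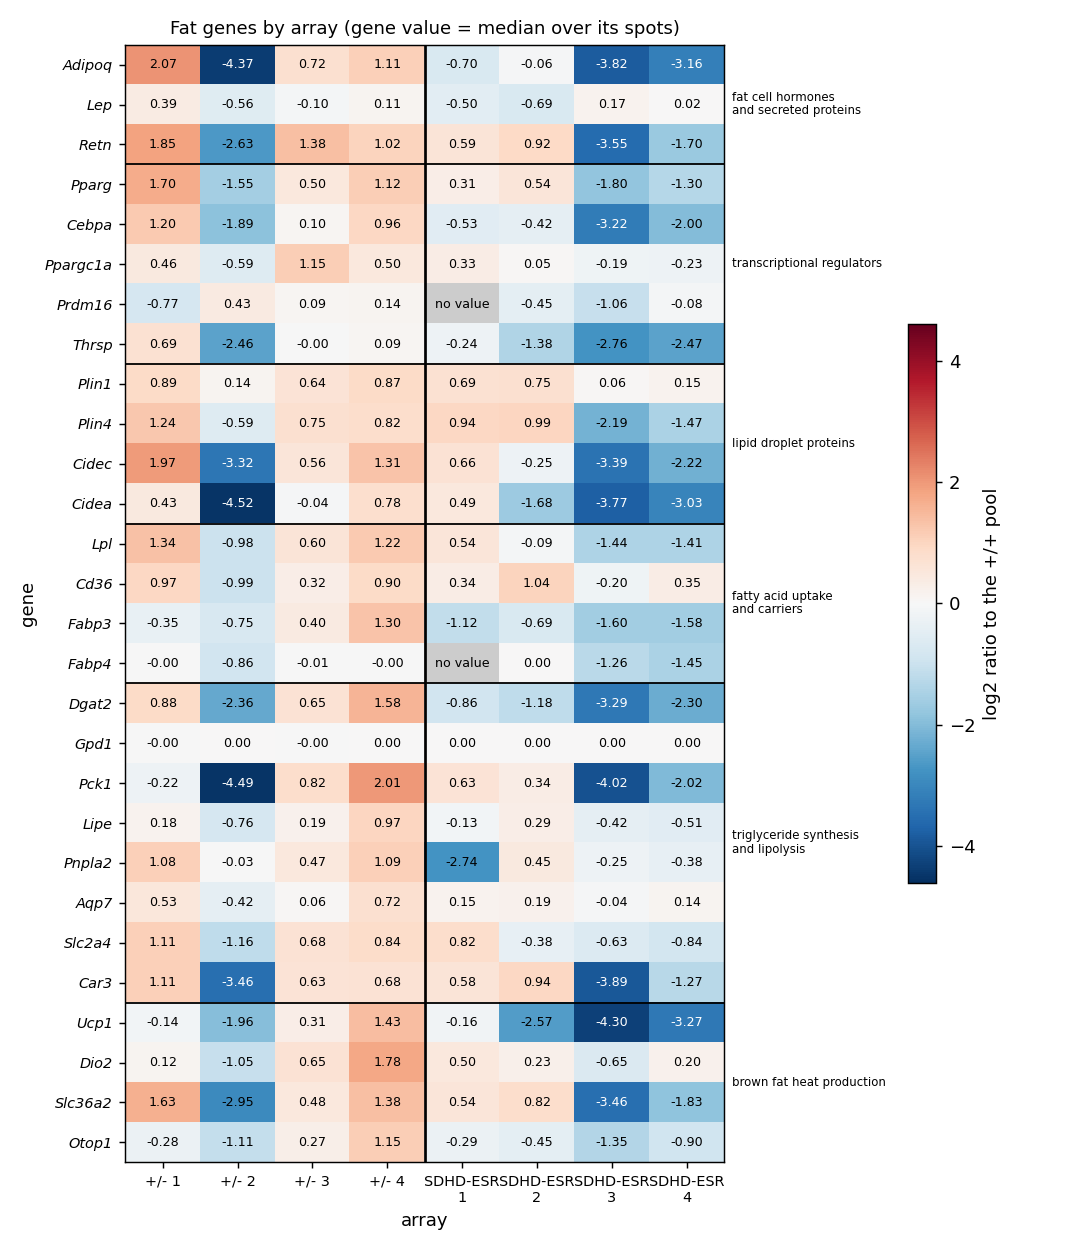
Log2 ratio to the +/+ pool of each of the 28 fat genes (rows, by role) on each of the 8 arrays (columns), as the median over the gene's spots; red is above and blue below the pool, and grey marks no value. The columns +/- 2, SDHD-ESR 3 and SDHD-ESR 4 are blue for most genes, with Cidea, a droplet protein of brown fat, at -4.52, -3.77 and -3.03.

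Promoters are shown for a white and a brown fat gene that were among the 4 members with the widest range over the arrays, Adipoq and Ucp1. The 250 bases before the start site are from RefSeq (GRCm38.p6, plus strand), at chr16:23146286-23146535 for Adipoq and chr8:83290098-83290347 for Ucp1. Capitals mark a match to 1 of 4 motifs searched on both strands: the C/EBP motif TTGCNNAA, the nuclear receptor motif AGGTCA, the PPAR motif AGGTCANAGGTCA, which contains it, and the TATA motif TATAAA.
Adipoq: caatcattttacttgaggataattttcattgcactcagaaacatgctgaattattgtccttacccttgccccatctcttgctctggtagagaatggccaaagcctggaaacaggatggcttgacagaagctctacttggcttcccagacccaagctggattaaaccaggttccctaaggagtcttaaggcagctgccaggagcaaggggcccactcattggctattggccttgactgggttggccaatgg
Ucp1: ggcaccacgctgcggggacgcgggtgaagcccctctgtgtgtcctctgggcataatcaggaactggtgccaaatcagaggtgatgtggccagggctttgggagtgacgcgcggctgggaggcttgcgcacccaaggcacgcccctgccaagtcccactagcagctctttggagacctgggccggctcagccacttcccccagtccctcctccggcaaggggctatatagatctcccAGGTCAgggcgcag
The nuclear receptor motif lies 14 to 9 bases before the Ucp1 start, and no motif of the 4 is in the Adipoq window. For 22 of the 32 members 28 promoter windows were held. The C/EBP motif was in 5 of these 28 windows and in 9.56% of all 32851 windows, the nuclear receptor motif in 6 windows, of 4 genes, and 14.0% of all, the TATA motif in 3 and 12.4% of all, and the full PPAR motif in 0 and 0.0335% of all.

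Among the fat cell hormones, Adipoq had the widest swing of all members but Pck1. Adipoq, which encodes adiponectin, was 2.07, -4.37, 0.72 and 1.11 on the +/- arrays and -0.70, -0.06, -3.82 and -3.16 on the SDHD-ESR arrays. Its spot lies in the shifted part of SDHD-ESR 1, and with the line moved back that value was 1.67. The high and low arrays were thus found in both groups. Retn, which encodes resistin, was 1.85, -2.63, 1.38 and 1.02 in +/- and 0.59, 0.92, -3.55 and -1.70 in SDHD-ESR, with 2 spots that differed by at most 0.78 on any array. Retn was therefore high on 5 arrays and low on the same 3 arrays as Adipoq.

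Lep, which encodes leptin, did not follow this order. Its values were 0.39, -0.56, -0.10 and 0.11 in +/- and -0.50, -0.69, 0.17 and 0.02 in SDHD-ESR, as medians over 10 spots. SDHD-ESR 3 and 4, where Retn was low, were near the pool for Lep. Its lowest value as deposited was on SDHD-ESR 2, and with the lines moved back SDHD-ESR 1 was at -0.70.

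Pparg, the master regulator of fat cells, was 1.70, -1.55, 0.50 and 1.12 in +/- and 0.31, 0.54, -1.80 and -1.30 in SDHD-ESR. Its 10 spots differed by at most 0.50 on each of +/- 1, 3 and 4 and SDHD-ESR 2. On +/- 2 they ran from -1.63 to 0.31, with 1 spot above 0. They ran from -2.89 to -1.40 on SDHD-ESR 3 and from -1.68 to -0.92 on SDHD-ESR 4. Cebpa, which encodes the partner factor C/EBPα, was 1.20, -1.89, 0.10 and 0.96 in +/- and -0.53, -0.42, -3.22 and -2.0 in SDHD-ESR, with SDHD-ESR 1 at -0.93 once moved back. Both regulators were lowest on SDHD-ESR 3.

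Thrsp, a lipogenic nuclear protein, was 0.69, -2.46, within 0.01 of 0, and 0.09 in +/- and -0.24, -1.38, -2.76 and -2.47 in SDHD-ESR. Prdm16, a regulator of the brown fat program, was -0.77, 0.43, 0.09 and 0.14 in +/- and -0.45, -1.06 and -0.08 on SDHD-ESR 2, 3 and 4, with no value on SDHD-ESR 1. Of its 7 values 5 were ratios of whole numbers of 100 or less, called dim here, so that its order rests on weak signals. Of all member values 5.35% were dim, against 21.9% of the values of all named spots. Ppargc1a, a coactivator of mitochondrial genes, ranged from -0.59 to 1.15 in +/- and from -0.23 to 0.33 in SDHD-ESR on its tested spot, where SDHD-ESR 1 went from 0.33 to -0.64 with the line moved back.

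**Figure D2:**
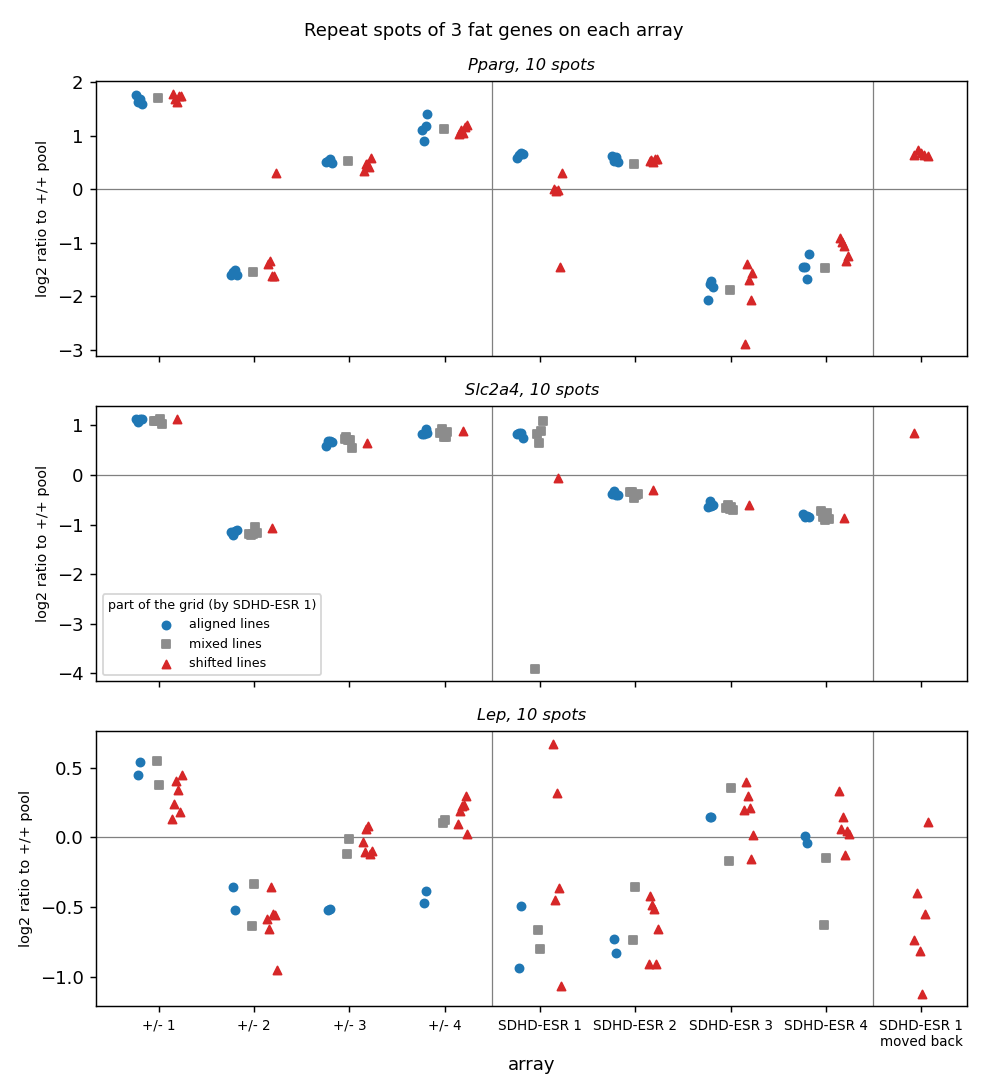
Log2 ratio to the +/+ pool of the 10 spots each of Pparg, Slc2a4 and Lep on every array, by the part of the grid in which SDHD-ESR 1 is aligned, mixed or shifted; the column on the right shows the shifted spots of SDHD-ESR 1 with their line moved back. Pparg spots in shifted lines move from between -1.46 and 0.31 to between 0.62 and 0.73, beside 0.58 to 0.67 in aligned lines.

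These repeat spots give a direct measure of error within an array. On SDHD-ESR 1, the 4 Pparg spots in aligned lines read 0.58 to 0.67. The 5 spots in shifted lines read -1.46 to 0.31 as deposited and 0.62 to 0.73 after the line was moved back. The deposited Pparg value of this array, 0.31, was thus below that of its aligned spots, and moved back it was 0.65. Slc2a4, which encodes the insulin-responsive glucose transporter GLUT4, was 1.11, -1.16, 0.68 and 0.84 in +/- and 0.82, -0.38, -0.63 and -0.84 in SDHD-ESR. Its 10 spots differed by at most 0.22 on 7 arrays, while on SDHD-ESR 1 they ran from -3.91 to 1.09. Differences between arrays of over 1 were many times the difference between spots on those 7 arrays.

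The droplet proteins showed the same 3 low arrays. Cidec, a white fat droplet protein, was 1.97, -3.32, 0.56 and 1.31 in +/- and 0.66, -0.25, -3.39 and -2.22 in SDHD-ESR. Its 2 spots disagreed on SDHD-ESR 2, at 1.12 and -1.62, and the value of SDHD-ESR 1 was 1.65 with the line moved back. Plin1, the perilipin of the fat cell droplet, was 0.89, 0.14, 0.64 and 0.87 in +/- and 0.69, 0.75, 0.06 and 0.15 in SDHD-ESR. Plin1 was lowest on the same 3 arrays within a range of under 1, where Cidec spanned over 5. Plin4, another perilipin, ran from -0.59 to 1.24 in +/- and from -2.19 to 0.99 in SDHD-ESR.

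Among the genes of fatty acid uptake, Fabp3 had the most negative difference between SDHD-ESR and +/-. Fabp3, a fatty acid carrier of muscle and brown fat, was -0.35, -0.75, 0.40 and 1.30 in +/- and -1.12, -0.69, -1.60 and -1.58 in SDHD-ESR. The groups overlapped only through +/- 2, which was below SDHD-ESR 2 by less than 0.1. The group means were 0.15 ± 0.90 in +/- and -1.25 ± 0.43 in SDHD-ESR (SD, n = 4). Moving the line of SDHD-ESR 1 back for 1 of its 2 spots put its value at -1.78.

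Lpl, the lipase that frees fatty acids from lipoproteins, was 1.34, -0.98, 0.60 and 1.21 in +/- and 0.54, -0.09, -1.44 and -1.41 in SDHD-ESR, and with the line moved back SDHD-ESR 1 was the highest array at 1.71. Fabp4, the main carrier of fat cells, was -0.86 on +/- 2, -1.26 on SDHD-ESR 3 and -1.45 on SDHD-ESR 4. On +/- 1, 3 and 4 and SDHD-ESR 2 it was within 0.01 of 0, and SDHD-ESR 1 had no value. Ratios within 0.01 of 0 were found on all 8 arrays for 260 spots, the spot of Gpd1 (glycerol-3-phosphate dehydrogenase) among them, and cannot be read as no change. Cd36, a fatty acid receptor, was between -0.99 and 0.97 in +/- and between -0.20 and 1.04 in SDHD-ESR.

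Of the genes of triglyceride synthesis and breakdown, Dgat2, the enzyme of the last step of triglyceride synthesis, was 0.88, -2.36, 0.65 and 1.58 in +/- and -0.86, -1.18, -3.29 and -2.30 in SDHD-ESR. All SDHD-ESR arrays were below +/- 1, 3 and 4 for Dgat2. Pnpla2, the lipase ATGL, was 1.08, -0.03, 0.47 and 1.09 in +/- and -2.74, 0.45, -0.25 and -0.38 in SDHD-ESR. The value of -2.74 lies in the shifted part and was 1.00 with the line moved back. This changed the difference between the groups from -1.38 to -0.44. Pck1, which supplies glycerol to fat cells, spanned from -4.49 to 2.01 over the arrays, the widest range of the members. Car3, a carbonic anhydrase abundant in fat, ran from -3.46 to 1.11 in +/- and from -3.89 to 0.95 in SDHD-ESR. Lipe, hormone-sensitive lipase, and Aqp7, a glycerol channel, stayed between -0.76 and 0.97 on all arrays.

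Ucp1, the defining gene of brown fat, was -0.14, -1.96, 0.31 and 1.43 in +/- and -0.16, -2.57, -4.30 and -3.27 in SDHD-ESR. Moving the line back on SDHD-ESR 1 put it at -0.94. Unlike most white fat genes, Ucp1 was also low on SDHD-ESR 2, where Cidea was at -1.68 while Retn was at 0.92 and Slc36a2, an amino acid transporter of brown fat, at 0.82. Otop1, a proton channel of brown fat, had 2 spots that disagreed by 4.22 on +/- 2 and by 3.00 on SDHD-ESR 2. Dio2, the deiodinase that activates thyroid hormone in brown fat, ran from -1.05 to 1.78 in +/- and from -0.65 to 0.50 in SDHD-ESR, where the value of 0.50 became -0.17 with the line moved back. Elovl3 had 5 values, from -4.63 on SDHD-ESR 3 to 1.16 on SDHD-ESR 1.

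**Figure D3:**
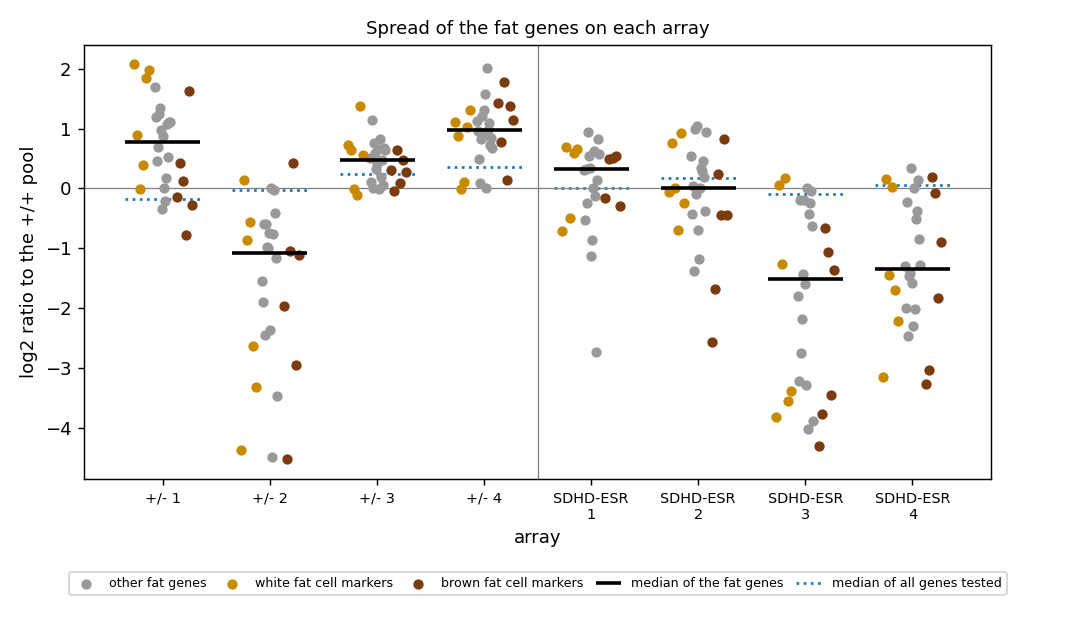
Log2 ratio to the +/+ pool of the 28 fat genes on each array, with white fat cell markers (6), brown fat cell markers (6) and the other members as points, the median of the members as a black bar and the median of all tested genes as a dotted line. The black bar is below -1 on +/- 2, SDHD-ESR 3 and SDHD-ESR 4, while the dotted line stays between -0.18 and 0.36.

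White and brown markers were low on the same arrays. Of a list of white fat cell markers, 6 of 7 could be measured and their median was 1.37, -1.75, 0.60 and 0.95 in +/- and 0.59, -0.03, -2.32 and -1.57 in SDHD-ESR. Of the brown list, 8 of 9 were measured, including Cox7a1 and Cox8b, and the medians were 0.08, -1.54, 0.21 and 1.01 in +/- and 0.49, -0.62, -1.67 and -1.74 in SDHD-ESR. Moving the lines of SDHD-ESR 1 back put its white median at 0.64 and its brown median at -0.60. Whether the markers of the 2 kinds of fat differed in their response was not tested.

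The order of the arrays was shared by most members. Of the 26 genes with a value on every array, 18 had their 3 lowest values on +/- 2, SDHD-ESR 3 and SDHD-ESR 4, as did 5.14% of all 16168 such genes. These 3 arrays were singled out after the values were seen, so the count is a description. The 8 exceptions were Fabp3, Lep, Ucp1, Pnpla2, Gpd1, Cd36, Aqp7 and Dio2. The members also varied more than other genes within a group: their median SD was 1.05 in +/- and 1.05 in SDHD-ESR, against 0.37 and 0.38 over all genes. Of the 28 members, 10 were in the top 5% of all genes by their range over the arrays.

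The comparison of SDHD-ESR with +/- asks which genes change along with loss of the remaining SdhD allele. SDHD-ESR mice also carry Cre-ER, which +/- mice lack, so the recombinase and the loss cannot be told apart here. The difference was below 0 for 26 of 28 fat genes, with a median of -0.89, while 57.4% of all genes were below 0 with a median of -0.05. With each array centred on its median, 26 of 28 and 51.8% were below 0. The exceptions were Cd36, at 0.08, and Gpd1, at 0. No spot passed the test: in limma, with Benjamini-Hochberg adjustment over all spots, 0 of the 60 member spots were called (adjusted p from 0.953 to 1), where 0% of all spots were called. At an unadjusted p of 0.05, 4 of the 60 member spots were lower and 0 were higher, where 2.8% of all spots were lower.

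Those 4 spots belonged to Fabp3, Pparg and Ucp1. Fabp3 differed by -1.68 ± 0.54 on the first spot and by -1.12 ± 0.51 on the second (SE of the limma fit, adjusted p = 0.953 for both). Ucp1 differed by -2.49 ± 1.13 (SE, adjusted p = 0.953), the largest difference of a gene among the members. Pparg reached this level on 1 of its 10 spots, at -1.45 ± 0.63 (SE), the spot with the value of 0.31 on +/- 2. For Adipoq the difference was -1.82 ± 1.71 (SE, adjusted p = 0.953), so its error was nearly as large as the difference itself.

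The groups were not separated for any member: in 0 of 28 genes were all SDHD-ESR arrays below all +/- arrays, where 1.41% of all genes were. Without +/- 2, which overlapped with SDHD-ESR for most members, 11 of 28 genes had all SDHD-ESR arrays below the other 3 +/- arrays, where 4.1% of all genes did. These were Adipoq, Retn, Cebpa, Thrsp, Ppargc1a, Fabp3, Lpl, Dgat2, Pnpla2, Ucp1 and Otop1. With the shifted lines of SDHD-ESR 1 moved back, 8 of these 11 genes still did, against 4.11% of all genes, and Adipoq, Lpl and Pnpla2 did not. As deposited, Otop1 was separated narrowly, at -0.281 on +/- 1 and -0.286 on SDHD-ESR 1. On SDHD-ESR 2, 1 of its 2 spots read 1.05, above every +/- array. Thrsp rests on a ratio within 0.01 of 0 on +/- 3, and its spot lies in lines where the shift of SDHD-ESR 1 could not be placed. With the lines as deposited and +/- 2 left out, 26 of 60 member spots, of 13 genes, were lower at an unadjusted p of 0.05, where 3.88% of all spots were, and 0 were called (smallest adjusted p = 0.699 in limma). With any other array left out, 1 to 6 member spots were lower at this level. Leaving out +/- 2, a step chosen after the values were seen for the count of separated genes, moved the median difference from -0.89 to -1.63.

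**Figure D4:**
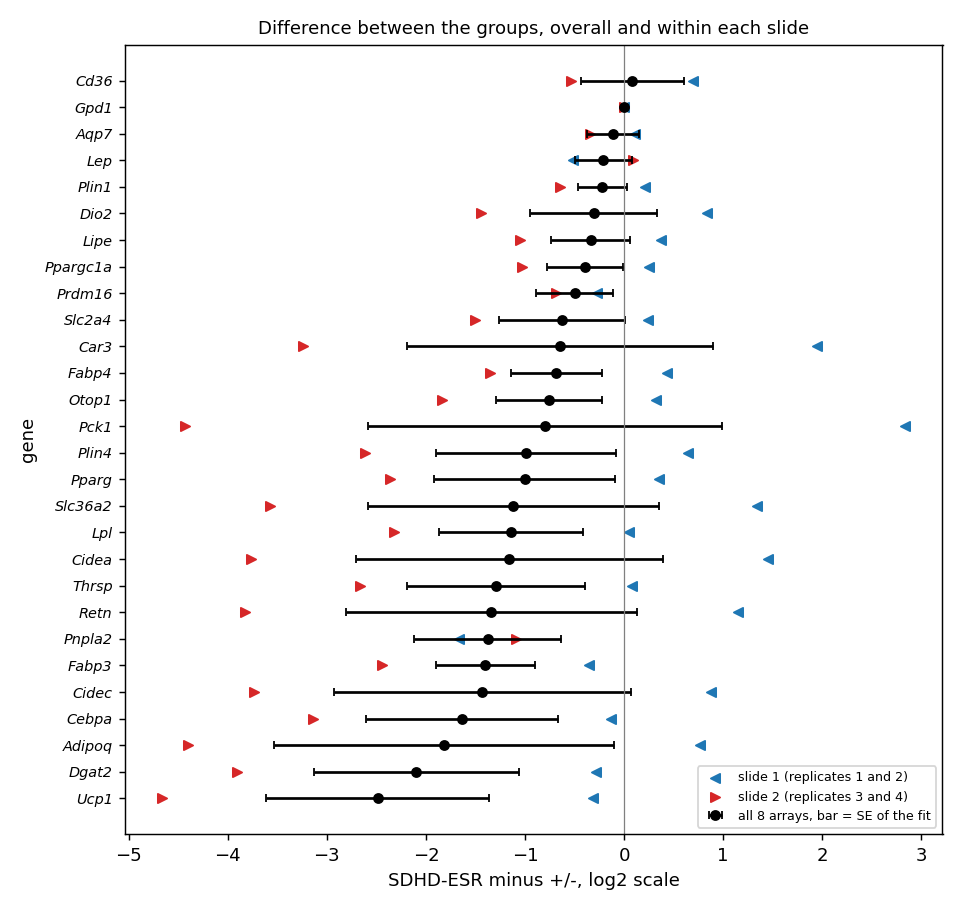
SDHD-ESR minus +/- on the log2 scale for the 28 fat genes, as black points with the SE of a limma fit on gene values (4 arrays against 4), and within slide 1 and slide 2 (2 arrays against 2 each, triangles). On slide 1 20 genes are above 0 and on slide 2 26 are below it.

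The median difference also had another sign on each slide. Slide 1 holds +/- 2, where the median fat gene stood at -1.08, beside 0.78 on +/- 1 and 0.32 and 0.00 on SDHD-ESR 1 and 2. On slide 1, 20 of 28 fat genes were higher in SDHD-ESR than in +/- and 8 were lower, with a median difference of 0.29, where the median of all genes was 0.22. On slide 2, 26 of 28 were lower with a median of -2.34, where the median of all genes was -0.33. Car3 stood at 1.94 on slide 1 and at -3.24 on slide 2, and Pck1 at 2.84 and -4.44. Fabp3, Ucp1, Dgat2 and Cebpa were among the genes lower on both slides, at -0.36, -0.32, -0.28 and -0.13 on slide 1. With 2 arrays per group on a slide, these values carry no test.

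Against the +/+ pool, the mean ratio of the median member was -0.74 in SDHD-ESR and 0.14 in +/-. In SDHD-ESR 0 of 60 member spots were called (limma, smallest adjusted p = 0.128, for Fabp3), where 0.0427% of all spots were, and at an unadjusted p of 0.05, 9 spots were below and 1 above the pool, where 7.05% and 10.3% of all spots were. In +/- 0 of 60 were called (smallest adjusted p = 0.152, for Plin1), where 0% of all spots were, and 2 spots were above the pool at that level, where 13.2% of all spots were. Both comparisons rest on the same pool.

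Other lists of fat genes had smaller median differences. Of all genes, 57.4% were below 0 with a median of -0.05, and 51.8% were below 0 with the arrays centred. Of 16 further measured genes of droplets and triglyceride metabolism, 13 were below 0 in SDHD-ESR minus +/-, and 11 with the arrays centred, with a median difference of -0.29. The 4 with the smallest p were Mogat1 (-2.17), G0s2 (-1.08), Mogat2 (-1.62) and Plin2 (-0.62). Plin2 was -1.16 on the partly shifted array SDHD-ESR 1, and 0.27, -0.26 and -0.13 on SDHD-ESR 2, 3 and 4. Mogat1 and Mogat2 are enzymes of triglyceride synthesis, G0s2 inhibits the lipase ATGL and Plin2 coats droplets. Of 18 further brown and beige fat genes, 12 were lower (66.7%, not far from the share of all genes), with a median of -0.35. They were led by Acot11 (-1.47), Cox7a1 (-1.36), Cpt1b (-1.29) and Tmem26 (-0.98). Tmem26 was -2.28 on SDHD-ESR 1, the array with shifted lines, and 0.40, -0.29 and -0.01 on SDHD-ESR 2, 3 and 4. Acot11 lay between -1.45 and -1.05 on all 4 SDHD-ESR arrays and between -1.22 and 1.66 on the +/- arrays. The groups therefore overlapped through +/- 2 again, as they did for Cox7a1.

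Of 10 genes of fatty acid synthesis, 8 had a difference below 0, and 6 with the arrays centred, with a median of -0.77. Of all genes, 57.4% and 51.8% were below 0 in these settings. Me1 and Scd2, both within 0.01 of 0, are among the 8. Fasn, fatty acid synthase, was 0.42, -2.56, 0.29 and 1.23 in +/- and -1.90, -1.80, -2.62 and -2.16 in SDHD-ESR, so that +/- 2 alone overlapped with the SDHD-ESR arrays. The others named by p were Acacb (-1.09) and Elovl6 (-1.14), which make and lengthen fatty acid precursors, and Acly, which was higher at 1.04 with a value of 2.78 on SDHD-ESR 1. Of 14 further hormones, receptors and signalling genes 11 were lower, with a median of -0.42, and those with the smallest p were Irs1 (-0.61), Rarres2 (-0.62), Cav1 (-1.10) and Angptl4 (-0.58). Of 12 further transcription factors 8 were lower (66.7%, not far from the share of all genes), with a median of -0.14. The factors with the smallest p went both ways, with Nr1h3 at -0.59, Rxra at 0.18, Cebpd at 0.51 and Ebf1 at -0.72. Ebf1 was at -1.63 on SDHD-ESR 1, and between -0.10 and 0.17 on the other SDHD-ESR arrays. Of 7 genes of fat precursors and stroma 6 were lower, and 5 with the arrays centred, with a median of -0.19. No spot of these lists was called (limma, adjusted p of 0.953 or more).

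Markers of other cells of the gland moved in part with the fat genes. Of all genes, 57.4% had a difference below 0, and 1.41% had all SDHD-ESR arrays below all +/- arrays. Macrophage markers were lower in SDHD-ESR for 5 of 5 genes, with list medians between -0.20 and 0.36 in +/- and between -0.87 and -0.42 in SDHD-ESR. Tyrobp and C1qa did not overlap between the groups, at -0.77 and -0.68. The 6 fibroblast markers were all lower too, with list medians between 0.18 and 0.52 in +/- and between -1.05 and 0.04 in SDHD-ESR, and Col3a1 (-1.12) and Dcn (-0.56) did not overlap. Unlike the fat genes, neither list was low on +/- 2, where the medians were -0.15 and 0.48. All 6 endothelial markers had a negative difference (median -0.30), as had 3 of 6 skeletal muscle markers (median 0.01). The muscle gene Ckm (0.81) did not overlap in the other direction, with no value on SDHD-ESR 1. All SDHD-ESR values were above all +/- values for 255 of all 19322 genes. Myl1 was at -1.16, with -3.16 on SDHD-ESR 4. Adrenal cortex markers were below 0 for 4 of 8, and for 1 of 8 with each array centred on its median. Those with the smallest p went both ways, with Mc2r at 0.55, Cyp21a1 at 0.30, Hsd3b1 at 0.60 and Cyp11b2 at -0.79. The Hsd3b1 difference rests on 1.98 on SDHD-ESR 1, the array with shifted lines, and -0.41 on +/- 1. On SDHD-ESR 2, 3 and 4 Hsd3b1 was -0.011, 0.002 and 0.0017, so it cannot be read as a rise. Some other cortex markers had differences near 0, so that the counts below 0 rest in part on very small values. The median chromaffin marker was within 0.01 of 0 on 7 of 8 arrays, Chgb on all 8, which cannot be read as no change. The other chromaffin markers with the smallest p differed in direction, with Pnmt at 0.52, Phox2a at -0.40 and Slc18a1 at -0.24. The part of these cells in the result was not tested.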

How the data were processed

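The deposited values are entered as scores: the authors' log ratios of Cy5 to Cy3 on 45220 spots per array, with whole numbers in place of missing ratios. How background and dyes were treated is not stated in the sources used here. The base was read from the values: on each array 41.2% to 47.2% of ratios were ratios of whole numbers up to 300 in base 2, against at most 1.65% in base 10. Spots were named by the geometry of the grid, the sign was turned, which Sdhd checks, and whole numbers (9.54% to 15.6% of spots per array) were dropped.

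Spots with a symbol and at least 3 values in each group entered a fit of group means in limma 3.58.1 (R 4.3.3), with Benjamini-Hochberg adjustment over all spots at 0.05, tested on simulated data. The value of a gene is the median over its tested spots. Each array is 1 pair of mice, and precision is limited by how few arrays there are. Alternatives were centring, quantile normalization, complete spots only, slide and replicate blocks, shifted lines moved back, whole numbers from -2 to 2 kept, 1 value or the mean per gene, the methods' t-test, robust eBayes and leaving out each array. Other steps ran in Python 3.11.15 (numpy 2.4.6, pandas 2.3.3; figures with matplotlib 3.10.9).

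The members and lists were chosen with earlier results of these data known. Per-array values were printed for 10 marker genes, the 12 members with the smallest p between the groups and any member whose groups did not overlap; other members are given by ranges. Up to 4 genes of each further list are named by p.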

Additional observations from a re-analysis of the deposited data

Results flagged for a closer look

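In 3 of 54 groups of 4 arrays, 1 array stood far from the other 3, and all 3 were +/- 2. Cidea was -4.52 there and between -0.04 and 0.78 on the other +/- arrays, Car3 was -3.46 beside 0.63 to 1.11, and Fabp4 was -0.86 where the other +/- arrays were within 0.01 of 0. Such ratios cannot be read as no change, and the Fabp4 flag rests on their small spread. Chance flags about 1 in 20 groups, and the genes share the array.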

How the results depend on the processing

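No member spot was called under any alternative in the 3 comparisons (0 in each, centring, quantile normalization, complete spots, slide block, moved-back lines, whole numbers kept, gene values, the methods' t-test, robust eBayes and each array left out included). The smallest adjusted p of a member ran from 0.517 to 1 between the groups, from 0.0514 (Fabp3, arrays centred) to 0.373 for SDHD-ESR against the pool and from 0.0631 to 0.436 for +/- against the pool. The median difference of -0.89 moved to 0.29 within slide 1 and to -2.34 within slide 2, of which the cause was not tested, and ran from -1.63 (without +/- 2) to -0.48 (without SDHD-ESR 3) when an array was left out. Over all spots, SDHD-ESR against the pool had 12 calls, 312 with centring, 455 with quantile normalization and 69 with moved-back lines. This comparison had 6 with gene values and 1 with the slide block, the replicate block or the methods' t-test. It had 0 to 2 when an array was left out. The comparison of +/- with the pool had 0 calls, 609 with quantile normalization and 1 without +/- 3.

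Whether the replicate numbers pair the samples was not settled. The deviations of same-numbered arrays correlated at 0.08, 0.12, -0.00 and 0.03, and those of differently numbered arrays at -0.14 to 0.05. The shifted lines of SDHD-ESR 1 make its correlations hard to read. With the replicate number as a block 0 member spots were called in each comparison and the median difference was -0.89. Dim signals, 4 arrays per group and the shifted lines of SDHD-ESR 1 limit what can be read for Prdm16, Ppargc1a, Otop1 and Pnpla2.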

Other observations

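Genes outside the list had the same low arrays. Ranked by the gap between the highest of +/- 2, SDHD-ESR 3 and SDHD-ESR 4 and the lowest of the other 5 arrays, an order chosen after the values were seen, 10 of the 20 widest gaps belonged to members. Of the others, Slc1a3, a glutamate transporter, was 2.24, -2.27, 1.23 and 0.86 in +/- and 1.83, 0.78, -2.27 and -2.05 in SDHD-ESR. Retnla, a relative of resistin, was 0.46, -3.30, -0.91 and -0.18 in +/- and -0.98, -0.67, -3.15 and -3.62 in SDHD-ESR. Pde3b, a phosphodiesterase that acts on lipolysis in fat cells, ran from -1.15 to 1.56. Ebf2, a factor of brown fat precursors, was -2.06 on +/- 2 and -5.11 and -1.93 on SDHD-ESR 3 and 4, and between -0.68 and 1.21 on the other arrays.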
